A study of Homo sapiens with 12 samples.

Results

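The CXC chemokines of the senescence secretome were followed here as 9 genes: CXCL1, CXCL2, CXCL3, CXCL5, CXCL6, CXCL8, CXCL12, CXCL14 and CXCL16. The members were chosen by name from a family, with earlier results of these data known. Other CXC ligands form a separate list, described further below. All 9 were found by symbol among the 57773 genes listed, and all 9 were among the 21518 genes with enough counts to be tested. The libraries were made from the mRNA of WI-38 cells, a diploid fibroblast line of human fetal lung, in 4 groups of 3 libraries. Proliferating cells received a non-targeting control siRNA (siCtrl) and were kept for 8 days in medium with DMSO, the vehicle of the drug. The other groups received siCtrl, siNTRK2 or siBDNF and were cultured for 8 days with 50 µM etoposide, a topoisomerase II inhibitor that breaks DNA and drives cells into senescence. NTRK2 encodes TrkB, the receptor of the neurotrophin BDNF, which these cells secrete. Every siRNA was used at 25 nM as a commercial pool directed at 1 target, and all cells were of the same line, between population doublings 15 and 25. Each target was therefore silenced with a single pool. The study describes its in vitro experiments as independent repeats, but nothing in the labels ties the libraries of a group to separate cultures. The p-values therefore measure the spread between these libraries, which may be technical.

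Chemokines are small secreted proteins that attract leukocytes. Those of the CXC family carry a single residue between their first cysteines, and a subset has the residues Glu-Leu-Arg (ELR) just before them. The ELR+ members (CXCL1, CXCL2, CXCL3, CXCL5, CXCL6 and CXCL8) bind CXCR2, and CXCL6 and CXCL8 also bind CXCR1, to recruit neutrophils. They are induced by interleukin-1 through NF-κB and are well-known parts of the senescence-associated secretory phenotype (SASP), the mixture of cytokines and proteases that senescent fibroblasts release. The remaining members are not ELR+. CXCL12 is a homeostatic stromal chemokine that binds CXCR4 and ACKR3, CXCL14 is an orphan ligand found in epithelia and fibroblasts, and CXCL16 is made as a membrane-bound protein that is shed by proteases and binds CXCR6.

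The ELR+ genes lie together on chromosome 4 of hg19, from the start of CXCL8 at 74606236 to the end of CXCL2 at 74964913. CXCL8, CXCL6 and CXCL1 are on the plus strand and CXCL5, CXCL3 and CXCL2 on the minus strand. CXCL12 lies on chromosome 10 (44865613 to 44881941), CXCL14 on chromosome 5 (134906369 to 134914969) and CXCL16 on chromosome 17 (4636828 to 4643223), all on the minus strand. Promoter windows of 300 bases, from 250 before to 50 after each start in RefSeq (GRCh38.p14), were matched for 8 members and not for CXCL16. The letters GGAATTTCC, a core to which NF-κB dimers bind, were searched on both strands. They were present in the windows of 6 of the 6 ELR+ members and in neither CXCL12 nor CXCL14. Of all 35116 promoter windows, 162 (0.461%) held them. The 100 bases before the start of each ELR+ member are shown because these letters are what the windows share, with the NF-κB core in capitals:
CXCL1: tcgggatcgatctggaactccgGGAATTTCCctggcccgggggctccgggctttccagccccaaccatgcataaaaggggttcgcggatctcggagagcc
CXCL2: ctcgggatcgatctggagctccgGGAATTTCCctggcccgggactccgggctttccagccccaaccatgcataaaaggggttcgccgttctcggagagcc
CXCL3: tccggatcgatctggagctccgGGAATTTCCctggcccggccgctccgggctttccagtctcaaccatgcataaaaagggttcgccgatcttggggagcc
CXCL5: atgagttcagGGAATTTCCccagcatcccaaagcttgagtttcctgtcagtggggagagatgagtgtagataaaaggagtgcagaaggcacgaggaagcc
CXCL6: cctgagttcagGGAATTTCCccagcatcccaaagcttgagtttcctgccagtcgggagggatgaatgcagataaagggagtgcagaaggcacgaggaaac
CXCL8: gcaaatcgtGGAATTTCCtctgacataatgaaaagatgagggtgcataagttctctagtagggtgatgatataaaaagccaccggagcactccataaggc

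In GRCh38.p14 these stretches are chr4:73869293-73869392 (CXCL1, plus), chr4:74099196-74099295 (CXCL2, minus), chr4:74038690-74038789 (CXCL3, minus), chr4:73998678-73998777 (CXCL5, minus), chr4:73836578-73836677 (CXCL6, plus) and chr4:73740469-73740568 (CXCL8, plus). The core began 77 or 78 bases before the start in CXCL1, CXCL2 and CXCL3, and 89 to 91 bases before it in CXCL5, CXCL6 and CXCL8. The sequences fell into groups of near copies. CXCL1 and CXCL2 were 94% identical over these 100 bases, CXCL1 and CXCL3 90%, CXCL2 and CXCL3 89%, and CXCL5 and CXCL6 90%, while all other pairs were between 40% and 52% identical. CXCL8 alone of the 8 windows held both an AP-1 motif (TGANTCA, 137 bases before the start) and a TATA box (TATAAA, 31 bases before it). The AP-1 letters were also found in CXCL14, and in 7.71% of all windows, and the TATA letters in 11.5%. The C/EBP core (TTGCNNAA) was found in CXCL2 and in 10.5% of all windows. A match is a description of letters and does not show that a factor was bound.

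The near copies bear on how far single members can be measured. The coding sequences of CXCL1, CXCL2 and CXCL3 were between 90.7% and 94.4% identical, and those of CXCL5 and CXCL6 87.5%, against 51.3% to 54.6% between CXCL8 and each of the others. No stretch of 100 bases of a member's main transcript occurred in a transcript of another gene. Stretches of 50 bases were shared among CXCL1, CXCL2 and CXCL3, amounting to 5.33%, 10.1% and 5.26% of their 50-base stretches. Reads of these 3 genes are therefore also given summed, which does not depend on how they were split. On the opposite strand MED11, with 5122 counts over the 12 libraries, overlaps CXCL16, and SLC25A48, with 31 counts, overlaps CXCL14. Whether counting used the strand is not given in the sources used here, so the values of CXCL16 are uncertain in that respect.

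The libraries held between 31567912 and 72328151 counts. Levels are given in CPM, the normalised read count after TMM scaling in edgeR has put all libraries on the same total. NTRK2 mRNA had 0 counts in all 3 siNTRK2 libraries and 7 to 15 in siCtrl senescent cells, so it was at least 3.37-fold lower against a floor of 3 counts per library. BDNF mRNA fell by 1.79 on the log2 scale with siBDNF (SE 0.049, adjusted p = 1.72e-18). With siNTRK2 it was called higher than in siCtrl senescent cells. It was called in neither direction in siCtrl senescent against proliferating cells. Senescence was visible in higher CDKN1A mRNA (log2 fold change 1.62, SE 0.042, adjusted p = 1.98e-20) and lower MKI67 mRNA (-3.68, SE 0.16, adjusted p = 2.86e-16) in siCtrl senescent against proliferating cells. The 8 fibroblast markers were all present, and their summed level was 31837 to 33775 CPM in proliferating cells, 23048 to 24836 in siCtrl senescent, 27044 to 29956 in siNTRK2 and 23855 to 24421 in siBDNF senescent cells. Mitochondrial genes took 1.6% to 1.99% of counts in proliferating cells, 3.33% to 3.65% in siCtrl senescent, 2.5% to 2.85% in siNTRK2 and 1.78% to 2.38% in siBDNF senescent cells. This share moved with the groups, and its part in the results was not tested. All adjusted p-values come from edgeR's quasi-likelihood test with Benjamini-Hochberg adjustment over the 21518 genes. As RNA was taken from whole cultures, fewer producing cells and less RNA per cell cannot be told apart.

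CXCL8 mRNA was by far the most abundant of the members. To compare genes, CPM were divided by the length of each gene's merged exons in kilobases. On this scale CXCL8 stood at 5.15 ± 0.33 (SD, n = 3) in proliferating cells, followed by CXCL12 at 1.80 ± 0.10 and CXCL1 at 1.49 ± 0.17, and the remaining members stood at 0.747 or below. In siCtrl senescent cells CXCL8 stood at 14.6 ± 0.81, followed by CXCL1 at 1.82 ± 0.35 and CXCL12 at 1.03 ± 0.15. Below them came CXCL16 at 0.648 ± 0.14, CXCL5 at 0.481 ± 0.12, CXCL14 at 0.418 ± 0.14, CXCL3 at 0.408 ± 0.091, CXCL2 at 0.324 ± 0.14 and CXCL6 at 0.214 ± 0.0052. In that lower part of the order no neighbours differed beyond their spread. In siNTRK2 senescent cells CXCL8 stood at a length-scaled level of 5.10 ± 0.46, CXCL1 at 0.773 ± 0.062, CXCL12 at 0.712 ± 0.035 and CXCL16 at 0.640 ± 0.052, and no neighbours among the last 3 differed beyond their spread. In siBDNF senescent cells CXCL8 stood at 17.4 ± 0.60, CXCL1 at 2.36 ± 0.10 and CXCL12 at 1.09 ± 0.043. The place of CXCL12 in these orders, and whether it differed from its neighbours, depends on the gene length used. The merged exons of CXCL12 span 6143 bases and its main transcript 1928, against 1362 and 1174 for CXCL1. In CPM without length scaling CXCL12 stood above CXCL1 in siCtrl senescent cells, at 6.33 against 2.48.

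**Figure D1:**
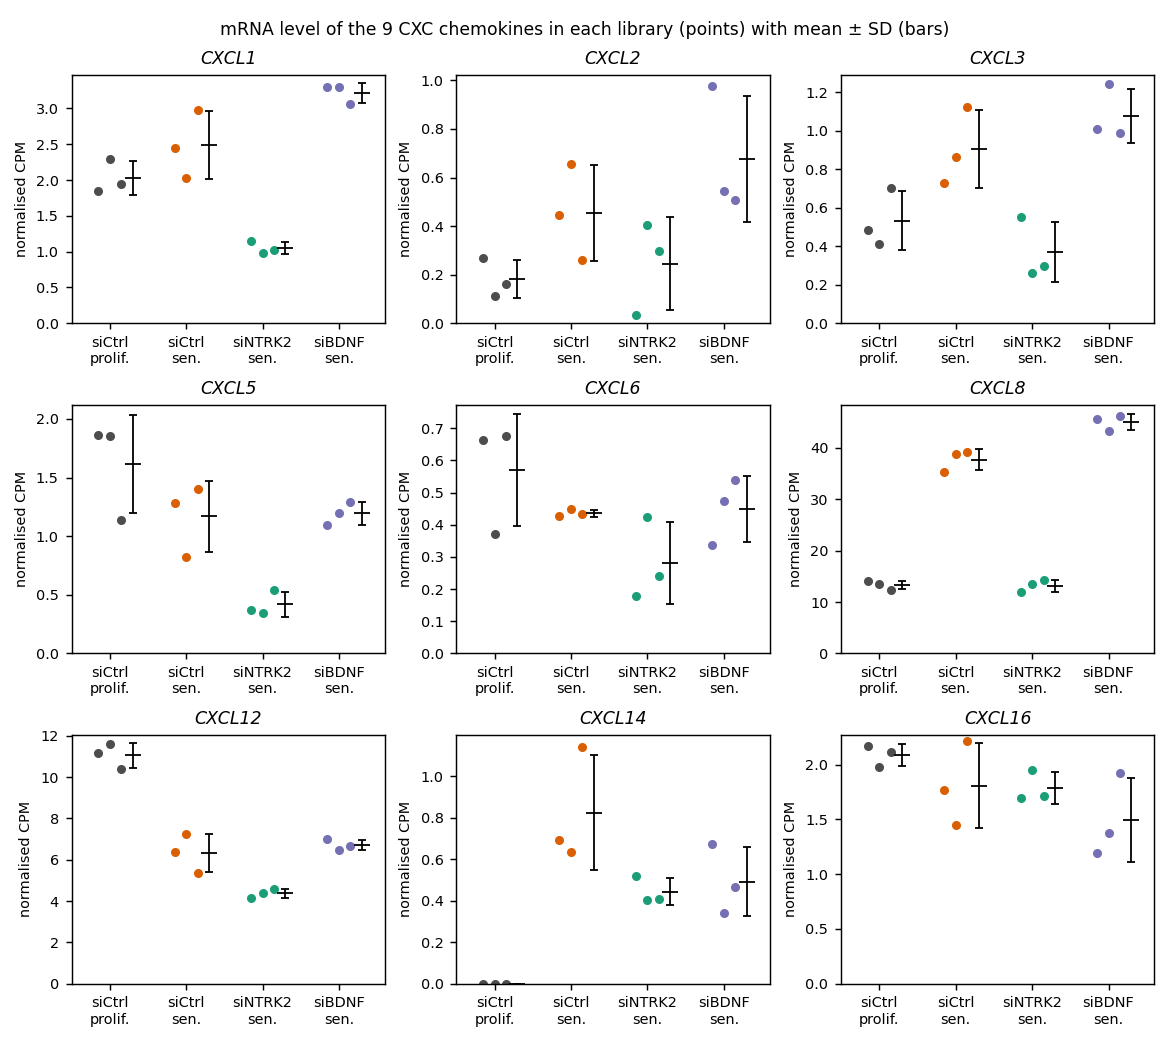
The plot of levels by library gives normalised CPM on a linear axis from 0 for each of the 9 genes, with 1 point per library and the mean ± SD of each group (n = 3) beside it. CXCL8 lay between 35.3 and 39.1 CPM in siCtrl senescent cells and between 11.9 and 14.2 in siNTRK2 senescent cells, and CXCL14 had no counts in proliferating cells.

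The comparison of siCtrl senescent with proliferating cells asks which of these chemokines belonged to the etoposide-induced programme. CXCL8, the main neutrophil attractant of the SASP, rose, as did CXCL3 and CXCL14, while CXCL12 fell. Thus 3 of the 9 members were called higher (adjusted p under 0.05), where 29.8% of all tested genes were, and 1 was called lower, where 28.3% of all genes were. The median log2 fold change of the members was 0.28, against 0.02 over all tested genes. In this comparison 2 members were called with an absolute log2 fold change over 1, as were 16.7% of all genes. These shares were close to the background, since most genes differed between the groups. CXCL14 is counted among the members called higher, though it could be tested only through the senescent libraries.

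CXCL8 mRNA was measured at 14.1, 13.5 and 12.4 CPM in the proliferating libraries and at 35.3, 38.7 and 39.1 in the siCtrl senescent libraries. Every senescent library was above every proliferating library, and the difference was 2.82-fold (log2 fold change 1.5, SE 0.071, adjusted p = 2.95e-15). CXCL3 was measured at 0.484, 0.413 and 0.704 CPM in proliferating cells and at 0.730, 0.861 and 1.13 in siCtrl senescent cells. The groups came close without overlapping, and the log2 fold change was 0.80 (SE 0.32, adjusted p = 0.0367). This call did not hold when proliferating library 1 (adjusted p = 0.101) or 2 (0.163), or siCtrl senescent library 2 (0.059) or 3 (0.169), was left out, nor without the filter on low counts (0.0519). CXCL2, which like CXCL1 and CXCL3 acts on CXCR2, had 15, 8 and 6 counts in proliferating and 25, 38 and 15 in siCtrl senescent libraries. Its log2 fold change of 1.32 did not pass (SE 0.59, adjusted p = 0.0586), but it passed with DESeq2 (adjusted p = 0.0369), without the filter on low counts (0.0258) and with only these groups in the fit (0.0234). It also passed without proliferating library 1 (0.0412) or siCtrl senescent library 3 (0.0325). CXCL2 met the filter on low counts only through the senescent libraries, so its values with the filter are drawn from that selection. CXCL1, a growth-regulated chemokine first known from melanoma cells, stood at 1.85, 2.29 and 1.95 CPM in proliferating and at 2.44, 2.03 and 2.98 in siCtrl senescent cells. These groups overlapped, and the log2 fold change of 0.28 did not pass (SE 0.17, adjusted p = 0.156). Summed, CXCL1, CXCL2 and CXCL3 were measured at 2.60, 2.82 and 2.81 CPM in proliferating and 3.62, 3.55 and 4.36 in siCtrl senescent cells, and the sum rose (log2 fold change 0.49, SE 0.13, adjusted p = 0.00299).

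CXCL5 and CXCL6, the other pair of near copies, did not follow CXCL8 upward. CXCL5 stood at 1.87, 1.85 and 1.14 CPM in proliferating and at 1.28, 0.827 and 1.40 in siCtrl senescent cells (log2 fold change -0.49, SE 0.25, adjusted p = 0.0965, and 0.0293 without proliferating library 3, its lowest). CXCL6 stood at 0.664, 0.370 and 0.676 CPM and at 0.428, 0.448 and 0.433 in the same order (log2 fold change -0.36, SE 0.40, adjusted p = 0.456). In both genes the groups overlapped. CXCL12 was measured at 11.2, 11.6 and 10.4 CPM in proliferating and at 6.38, 7.24 and 5.37 in siCtrl senescent cells, with no overlap, and fell by 0.81 on the log2 scale (SE 0.10, adjusted p = 2.71e-07). CXCL16 showed overlapping groups, from 1.98 to 2.17 CPM in proliferating and from 1.45 to 2.22 in siCtrl senescent cells (log2 fold change -0.20, SE 0.20, adjusted p = 0.391).

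CXCL14 had 0 counts in all 3 proliferating libraries and 39, 37 and 66 in the siCtrl senescent libraries, or 0.695, 0.637 and 1.14 CPM. CXCL14 could be tested only through the senescent libraries, so its calls as higher than in proliferating cells are drawn from that selection. It was at least 13.9-fold higher, taking 3 counts per library as the floor for proliferating cells. Against the same floor it was at least 7.48-fold higher in siNTRK2 senescent cells, with 32, 20 and 22 counts, and at least 8.31-fold higher in siBDNF senescent cells, with 22, 23 and 32 counts. Other genes that fibroblasts are not known for gained counts in the same libraries. The summed level of 4 leukocyte markers (PTPRC, CD3E, CSF1R and LYZ) was 0.305 to 0.460 CPM in proliferating cells, where PTPRC, CD3E and LYZ were at 0, and 1.90 to 1.96 in siCtrl senescent, 1.36 to 1.51 in siNTRK2 and 2.23 to 2.38 in siBDNF senescent cells. The 4 epithelial markers summed to 0.233 to 0.342 CPM in proliferating cells, where KRT5 and KRT14 were at 0, 0.969 to 1.05 in siCtrl senescent, 0.671 to 0.905 in siNTRK2, where KRT5 was at 0, and 1.23 to 1.48 in siBDNF senescent cells. Of the 3 endothelial markers 2 were matched, and they summed to 0.379 to 1.13 CPM in proliferating cells, where CDH5 was at 0, 1.90 to 2.27 in siCtrl senescent, 1.41 to 1.77 in siNTRK2 and 1.89 to 2.59 in siBDNF senescent cells. The number of genes with a count rose alongside, from 24315 to 25396 in proliferating libraries to 26706 to 32183 in the senescent libraries. The part of these in the CXCL14 difference was not tested.

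The comparison of siNTRK2 with siCtrl in senescent cells asks how the chemokine mRNAs differed with the siRNA pool directed at NTRK2. CXCL1, CXCL3, CXCL5, CXCL8 and CXCL12 fell, and no member rose. Thus 5 of the 9 members were called lower, where 10% of all tested genes were, and 0 were called higher, where 11.1% of all genes were. By DESeq2 0 were called higher as well, and at an unadjusted p under 0.05 edgeR gave 0. The median of the members was -0.92, against -0.0024 over all tested genes. All 4 ELR+ members called had an absolute log2 fold change over 1, and 0.957% of all genes were called with such a change.

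CXCL8 mRNA was measured at 11.9, 13.5 and 14.2 CPM in the siNTRK2 libraries, all below the lowest siCtrl senescent library at 35.3. The fall was 2.86-fold (log2 fold change -1.52, SE 0.071, adjusted p = 1.28e-13). Against proliferating cells, at 12.4 to 14.1 CPM, the siNTRK2 libraries overlapped, and the log2 difference was -0.02 (SE 0.075, adjusted p = 0.824). CXCL1 was measured at 1.15, 0.988 and 1.02 CPM, below every siCtrl senescent library, and fell by 1.23 on the log2 scale (SE 0.18, adjusted p = 1.88e-05). It was also lower than in proliferating cells (log2 fold change -0.95, SE 0.18, adjusted p = 1.05e-04). CXCL3 stood at 0.550, 0.262 and 0.298 CPM, again with no overlap, and fell by 1.27 (SE 0.33, adjusted p = 0.00745). Without siCtrl senescent library 3 its adjusted p was 0.0553. CXCL2 had 2, 20 and 16 counts, which overlapped those of siCtrl senescent cells (log2 fold change -0.92, SE 0.57, adjusted p = 0.277). The sum of CXCL1, CXCL2 and CXCL3 stood at 1.73, 1.65 and 1.62 CPM, below the lowest siCtrl senescent library at 3.55, and fell by 1.20 (SE 0.14, adjusted p = 7.53e-07).

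CXCL5, a neutrophil chemokine of epithelia and stroma, was measured at 0.372, 0.343 and 0.540 CPM in siNTRK2 libraries, against 0.827 to 1.40 in siCtrl senescent and 1.14 to 1.87 in proliferating cells. It fell by 1.48 on the log2 scale against siCtrl senescent cells (SE 0.29, adjusted p = 5.02e-04) and by 1.97 against proliferating cells (SE 0.28, adjusted p = 1.74e-06). CXCL6 stood at 0.178, 0.423 and 0.242 CPM, below every siCtrl senescent library, but at 11 to 26 counts a library the log2 fold change of -0.65 did not pass (SE 0.42, adjusted p = 0.308). CXCL12, outside the ELR+ class, was measured at 4.15, 4.39 and 4.58 CPM, below every siCtrl senescent library, and fell by 0.53 (SE 0.11, adjusted p = 9.41e-04). Against proliferating cells CXCL12 fell by 1.34 (SE 0.11, adjusted p = 8.37e-11). CXCL14, at 0.517, 0.403 and 0.410 CPM, lay below all siCtrl senescent libraries without passing (log2 fold change -0.89, SE 0.39, adjusted p = 0.115). CXCL16, at 1.70, 1.96 and 1.71 CPM, overlapped siCtrl senescent cells (-0.02, SE 0.20, adjusted p = 0.963).

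Against proliferating cells 1 member, CXCL14, was called higher in siNTRK2 senescent cells, where 28.2% of all genes were, and 4 (CXCL1, CXCL5, CXCL6 and CXCL12) were called lower, where 26.8% of all genes were. The call of CXCL6 (log2 fold change -1.01, SE 0.42, adjusted p = 0.0439) was lost without proliferating library 1 (adjusted p = 0.137) or 3 (0.116), without siNTRK2 library 1 (0.165) or 3 (0.102), and in several other settings. This comparison was added after the values were seen, and it shares its libraries with the comparisons above. In it too CXCL14 could be tested only through the senescent libraries.

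The siNTRK2 libraries also differed from siCtrl senescent libraries in genes of the senescent state. CDKN1A mRNA, which encodes the cell cycle inhibitor p21, fell by 0.50 on the log2 scale (SE 0.041, adjusted p = 2.8e-09). CDKN2A, which encodes the inhibitor p16, went the other way, by 0.21 (SE 0.066, adjusted p = 0.0251), with groups that overlapped. The 3 proliferation markers MKI67, TOP2A and CCNB1 summed to 45.5 to 46.9 CPM in siNTRK2, 23.8 to 25.3 in siCtrl senescent, 25.7 to 27.3 in siBDNF senescent and 182 to 197 in proliferating cells. The summed levels of the leukocyte, endothelial and epithelial markers given above were also lower in every siNTRK2 library than in every siCtrl senescent library. The part of these differences in the chemokine levels was not tested.

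**Figure D2:**
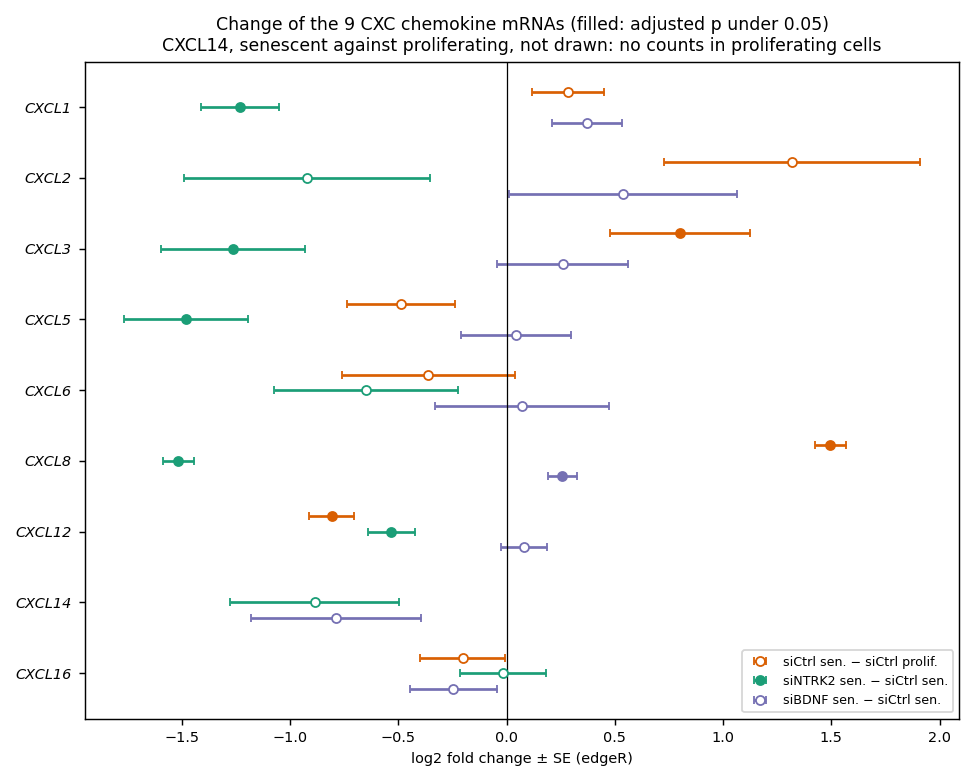
The plot of log2 fold changes gives edgeR's estimate ± SE for each member in siCtrl senescent against proliferating cells and in siNTRK2 and siBDNF against siCtrl senescent cells, with filled points at an adjusted p under 0.05 and no point for CXCL14 in senescence, which had 0 counts in proliferating cells. All 9 siNTRK2 estimates lie below 0, from CXCL5 and CXCL8 at -1.48 and -1.52 to CXCL16 at -0.02, which turned to 0.0010 when scaled by library totals, while the siBDNF estimates lie between -0.79 for CXCL14 and 0.54 for CXCL2.

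The comparison of siBDNF with siCtrl in senescent cells asks the same for the siRNA pool directed at BDNF. CXCL8 rose slightly and no other member was called. Thus 1 of the 9 members was called higher, where 10.3% of all tested genes were, and 0 were called lower, where 10.2% of all genes were. By DESeq2 0 were called lower as well, though it gave no adjusted p for CXCL2, CXCL6 and CXCL14 here. At an unadjusted p under 0.05 edgeR gave 0. The median of the members was 0.08, against 0.0040 over all genes, and none of them was called with an absolute log2 fold change over 1, as 0.609% of all genes were.

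CXCL8 was measured at 45.6, 43.3 and 46.2 CPM, above every siCtrl senescent library, and rose 1.19-fold (log2 fold change 0.26, SE 0.066, adjusted p = 0.0067). Without siCtrl senescent library 1, the lowest of its group, the adjusted p was 0.0625. CXCL1, at 3.30, 3.29 and 3.06 CPM, also lay above every siCtrl senescent library, but the log2 fold change of 0.37 did not pass (SE 0.16, adjusted p = 0.117). It passed only without siCtrl senescent library 3 (adjusted p = 0.0496). The sum of CXCL1, CXCL2 and CXCL3 rose by 0.37 on the log2 scale (SE 0.13, adjusted p = 0.0423), from 3.55 to 4.36 CPM in siCtrl senescent to 5.28, 5.08 and 4.56 in siBDNF libraries. That call was lost without siCtrl senescent library 1 (adjusted p = 0.153) or 2 (0.127), or siBDNF library 1 (0.14) or 2 (0.146).

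The remaining members did not pass. CXCL3 stood at 1.01, 1.24 and 0.990 CPM (log2 fold change 0.26, SE 0.30, adjusted p = 0.637) and CXCL5 at 1.10, 1.20 and 1.30 (0.04, SE 0.25, adjusted p = 0.94). CXCL12 stood at 6.99, 6.47 and 6.68 CPM (0.08, SE 0.11, adjusted p = 0.68). CXCL2, CXCL6, CXCL14 and CXCL16 had log2 fold changes of 0.54, 0.07, -0.79 and -0.25 with SEs of 0.52, 0.40, 0.39 and 0.20, and all of their adjusted p-values were at or above 0.179. A comparison with proliferating cells was added after the values were seen. In it 5 members (CXCL1, CXCL2, CXCL3, CXCL8 and CXCL14) were called higher in siBDNF senescent cells, where 30.2% of all genes were. Of these, CXCL2 and CXCL14 could be tested only through the senescent libraries. In the same comparison 1 member (CXCL12) was called lower, where 28.4% of all genes were. CXCL16, at -0.45 (SE 0.20, adjusted p = 0.0574), was also called lower without siBDNF library 3 (0.0117), and CXCL5, at -0.45 (SE 0.25, adjusted p = 0.13), without proliferating library 3 (0.0404).

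The silenced groups were compared directly, as both were measured against the same siCtrl senescent libraries. CXCL1, CXCL3, CXCL5, CXCL8 and CXCL12 were lower in siNTRK2 than in siBDNF senescent cells. Thus 5 of the 9 members were called lower, where 7.86% of all tested genes were, and 0 were called higher, where 8.84% of all genes were. By DESeq2 0 were called higher as well, and at an unadjusted p under 0.05 edgeR gave 0. The difference was 3.42-fold for CXCL8 (log2 fold change -1.77, SE 0.071, adjusted p = 2.9e-15), and every siNTRK2 library was below every siBDNF library. It was -1.52 for CXCL3 (SE 0.33, adjusted p = 0.00177), -1.52 for CXCL5 (SE 0.29, adjusted p = 4.3e-04) and -0.61 for CXCL12 (SE 0.11, adjusted p = 2.44e-04). These 3 genes also had no overlap between the groups, nor had CXCL1, whose log2 difference was -1.60 (SE 0.18, adjusted p = 3.22e-07). The lack of overlap adds no support, as these genes were called by the same contrast. How many of all tested genes had no overlap is not given. All 4 ELR+ genes among the 5 called had an absolute log2 fold change over 1, and 1.16% of all genes were called with such a change. CXCL2 differed by -1.46 without passing (SE 0.56, adjusted p = 0.0779), although its groups did not overlap, and it passed with DESeq2 (adjusted p = 0.0437) without the filter on low counts (0.024) and without siNTRK2 library 2 (0.0332).

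The members were also summed, to describe the make-up of the chemokine pool. The ELR+ members summed to 17 to 19.2 CPM in proliferating cells, 40.6 to 45.3 in siCtrl senescent, 14.2 to 16.6 in siNTRK2 and 50.0 to 52.6 in siBDNF senescent cells. The sum of CXCL12, CXCL14 and CXCL16 was 12.5 to 13.6, 8.73 to 9.32, 6.37 to 6.75 and 8.18 to 9.07 CPM in the same order. ELR+ transcripts therefore exceeded the others in every library, by the smallest margin in proliferating cells. As a share of the summed length-scaled level, CXCL8 took 49.0% ± 0.82 (SD, n = 3) in proliferating cells, 73.2% ± 1.79 in siCtrl senescent, 62.9% ± 1.65 in siNTRK2 and 74.6% ± 0.60 in siBDNF senescent cells. CXCL12 took 17.1% ± 0.47, 5.20% ± 0.93, 8.81% ± 0.21 and 4.69% ± 0.11. CXCL16 took 7.13% ± 0.51, 3.25% ± 0.59, 7.92% ± 0.62 and 2.29% ± 0.56. For all 3 genes the siNTRK2 and siCtrl senescent libraries did not overlap, and an exact two-sided permutation test gave p = 0.1, the smallest that 3 against 3 libraries allow, and 0.212 after Benjamini-Hochberg adjustment over the 9 members and 4 comparisons. The CXCL6 share, at 1.08% ± 0.058 in siCtrl senescent and 1.69% ± 0.71 in siNTRK2 cells, also did not overlap. It too gave p = 0.1 by this permutation test, and 0.212 after adjustment. No share therefore passed. How large the CXCL12 share was depends on the gene length used. The CXCL12 and CXCL16 shares were higher with siNTRK2 while their own levels were not, since CXCL12 fell by 0.53 on the log2 scale and CXCL16 gave -0.02. The CXCL1 share was 9.14% ± 1.48 in siCtrl senescent and 9.61% ± 1.42 in siNTRK2 senescent cells (exact permutation p = 0.7), and these groups overlapped.

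**Figure D3:**
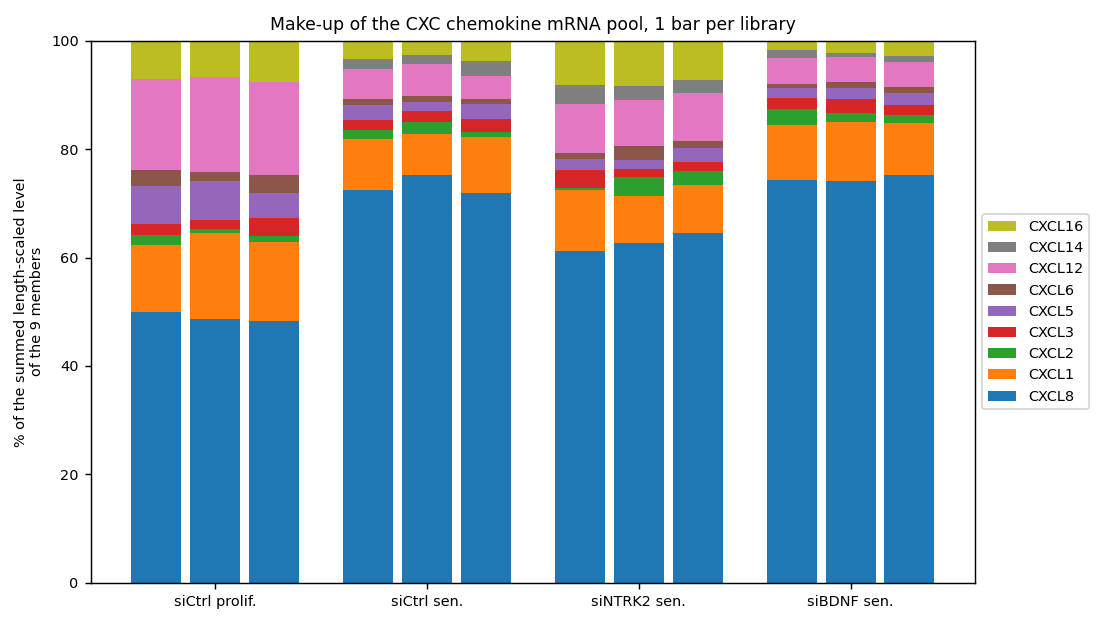
The plot of shares stacks, for each of the 12 libraries, the percentage that each member took of the summed length-scaled level of the 9 members. CXCL8 fills 48.4% to 49.9% of the bars of proliferating cells and 71.9% to 75.2% of those of siCtrl senescent cells, and the CXCL12 band is widest in proliferating cells.

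The receptors of the members had few counts. Of 8 CXC and atypical receptor genes, 3 were tested (CXCR5, whose known ligand is not a member, CXCR6 and ACKR3), and none of the 3 was called in either silencing comparison. CXCR1, which binds CXCL6 and CXCL8, CXCR2, which binds all ELR+ members, and CXCR4, which binds CXCL12, each had 0 counts in all proliferating libraries. In the senescent groups CXCR1 had 0 to 9, CXCR2 0 to 15 and CXCR4 1 to 12 counts per library. The receptor of CXCL16, CXCR6, had 0 to 16 counts per library and showed no called change between siCtrl senescent and proliferating cells (log2 fold change 1.53, SE 0.83, adjusted p = 0.121). ACKR3, a scavenging receptor of CXCL12, had 5 to 28 counts, with overlapping groups (0.41, SE 0.56, adjusted p = 0.55).

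Cytokines that act upstream of the ELR+ chemokines were taken from a list of 8 genes, of which 5 were tested. With siNTRK2 4 of the 5 fell and none rose, where 10% and 11.1% of all genes did. With siBDNF 4 rose and none fell, where 10.3% and 10.2% of all genes did. IL1A, an alarmin and a known driver of the SASP, had 4, 7 and 0 counts in proliferating and 38, 23 and 42 in siCtrl senescent libraries, against 5, 9 and 7 with siNTRK2 and 48, 107 and 116 with siBDNF. It fell by 2.21 on the log2 scale with siNTRK2 (SE 0.44, adjusted p = 7.33e-04) and rose by 1.40 with siBDNF (SE 0.34, adjusted p = 0.00441). The groups did not overlap in either comparison. IL1A could be tested only through the siCtrl and siBDNF senescent libraries, so its fall with siNTRK2 is drawn from that selection. IL1B, the secreted interleukin-1, stood at 2.42, 3.51 and 3.06 CPM in siCtrl senescent cells, at 1.03, 1.61 and 1.15 with siNTRK2 and at 3.75, 5.04 and 5.04 with siBDNF. Its log2 fold changes were -1.25 (SE 0.20, adjusted p = 6.54e-05) and 0.63 (SE 0.18, adjusted p = 0.0134). LIF, a cytokine of the interleukin-6 family, moved less, by -0.19 (SE 0.060, adjusted p = 0.025) and 0.23 (SE 0.059, adjusted p = 0.00567). IL1R1, the signalling receptor of both interleukins, rose with siBDNF by 0.27 (SE 0.047, adjusted p = 2.19e-04). IL6 alone of the 5 was not called with siBDNF, where it gave 0.01 (SE 0.098, adjusted p = 0.967). It was lower in siCtrl senescent than in proliferating cells (-0.25, SE 0.097, adjusted p = 0.0323). IL1R1 was also called lower there, with means of 69.8 CPM in siCtrl senescent and 86.0 in proliferating cells. With siNTRK2 IL6 fell further (-0.29, SE 0.10, adjusted p = 0.0402).

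**Figure D4:**
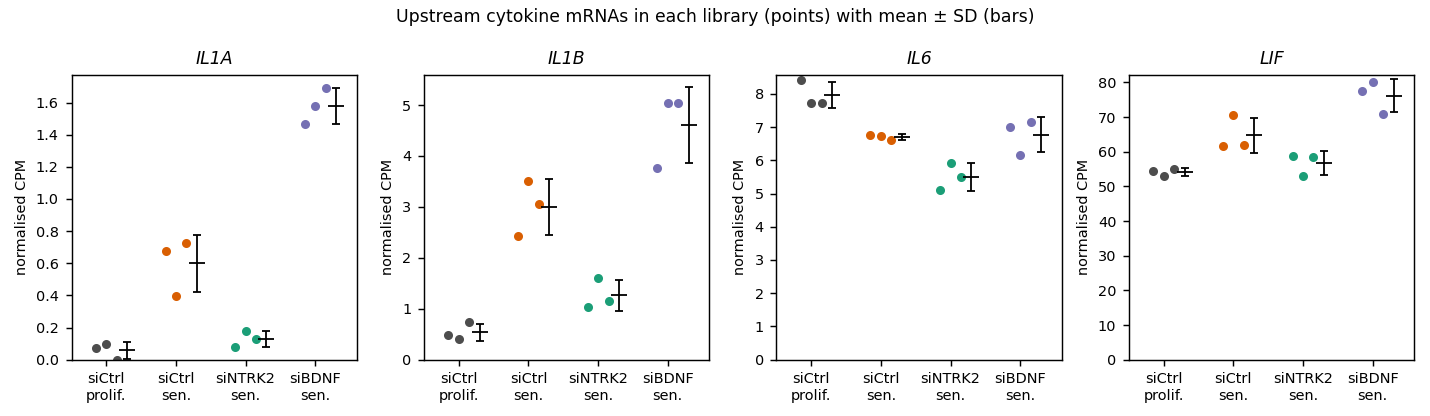
The plot of cytokine levels gives normalised CPM of IL1A, IL1B, IL6 and LIF on linear axes from 0, with 1 point per library and the mean ± SD of each group (n = 3). IL1B lies between 1.03 and 1.61 CPM with siNTRK2 and between 3.75 and 5.04 with siBDNF, while IL6 is highest in proliferating cells, at 7.72 to 8.41 CPM.

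The NF-κB and C/EBP factors and their inhibitors, 12 genes on the list and all tested, moved by small amounts on silencing. With siNTRK2 4 fell and none rose. These were RELA, the p65 subunit (log2 fold change -0.32, SE 0.050, adjusted p = 3.47e-05), NFKBIA, an inhibitor that is itself an NF-κB target (-0.26, SE 0.053, adjusted p = 8.21e-04), CEBPB (-0.30, SE 0.068, adjusted p = 0.00203) and RELB (-0.23, SE 0.074, adjusted p = 0.0286). With siBDNF 4 rose and 2 fell. Of all tested genes 11.1% rose and 10% fell with siNTRK2, and 10.3% rose and 10.2% fell with siBDNF. NFKBIZ, a cofactor of p50 (0.48, SE 0.084, adjusted p = 1.91e-04), TNFAIP3, a deubiquitinase that dampens the pathway (0.44, SE 0.10, adjusted p = 0.00235), and NFKBIA (0.25, SE 0.052, adjusted p = 0.00114) were higher, and RELA was lower (-0.23, SE 0.050, adjusted p = 0.00184). RELA mRNA thus fell with both siRNAs. In siCtrl senescent against proliferating cells, where 29.8% of all genes were called higher and 28.3% lower, all 12 passed. Of the 12, 5 were higher and 7 lower, with a median log2 fold change of -0.41. Among them CEBPD fell by 1.34 (SE 0.11, adjusted p = 8.58e-11), NFKB1 by 0.92 (SE 0.057, adjusted p = 4.94e-13) and TNFAIP3 by 1.02 (SE 0.098, adjusted p = 1.99e-09), and NFKBIZ rose by 1.02 (SE 0.090, adjusted p = 4.77e-10).

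**Figure D5:**
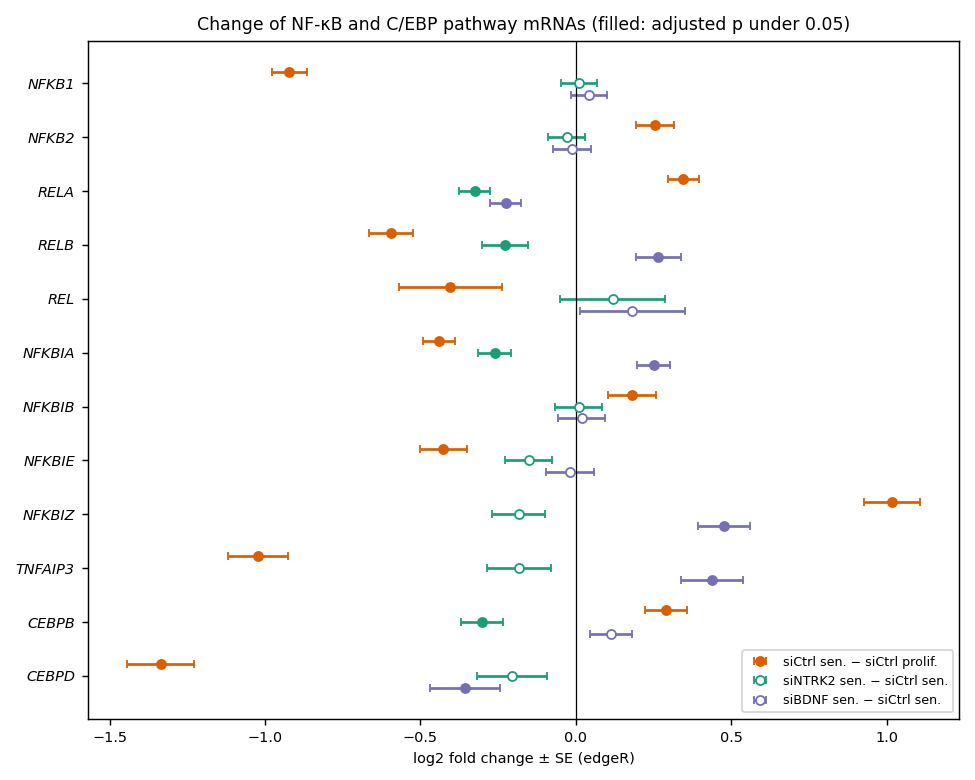
The plot of NF-κB and C/EBP genes gives edgeR's log2 fold change ± SE of 12 mRNAs in siCtrl senescent against proliferating cells and in siNTRK2 and siBDNF against siCtrl senescent cells, with filled points at an adjusted p under 0.05. The silencing estimates lie between -0.36 for CEBPD with siBDNF and 0.48 for NFKBIZ with siBDNF, while senescence moved CEBPD by -1.34 and NFKBIZ by 1.02.

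Genes with the same NF-κB letters in their promoter window were called lower with siNTRK2 at a share near that of all genes. Of 147 such symbols that are not members, 74 were tested, and 13 (17.6%) were higher and 8 (10.8%) lower with siNTRK2. Among 13050 tested genes whose window lacked the letters these shares were 13.3% and 11.4%. The median log2 fold change was 0.009 with the letters and -0.0038 without them.

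Among other CXC ligands, 4 of 8 listed were tested. All 4 (CXCL9, CXCL10, CXCL11 and CXCL17) were called higher in siCtrl senescent than in proliferating cells, where 29.8% of all genes were. CXCL17 had 0, CXCL9 0 to 1 and CXCL11 2 to 4 counts per proliferating library, so these 3 could be tested only through the senescent libraries, in which many genes without counts in proliferating cells had some. CXCL10, an interferon-induced ligand of CXCR3, stood at 1.44, 1.05 and 1.82 CPM in siCtrl senescent and 0.776, 0.343 and 0.633 in siNTRK2 senescent cells, with no overlap, and fell by 1.28 on the log2 scale (SE 0.32, adjusted p = 0.00554). CXCL11, another CXCR3 ligand, went from 15, 12 and 13 counts to 2, 4 and 0 (log2 fold change -2.60, SE 0.77, adjusted p = 0.0168). CXCL11 could be tested only through the siCtrl senescent libraries, so its fall with siNTRK2 is drawn from that selection. With siBDNF none of the 4 was called. Of 22 chemokines of the CC and other families, 19 were matched and 9 tested. With siNTRK2 2 of the 9 fell, where 10% of all genes did. CCL20, a CCR6 ligand, fell by 2.47 (SE 0.56, adjusted p = 0.00216). CCL20 could be tested only through the siCtrl and siBDNF senescent libraries, so this fall too is drawn from that selection. CCL2, the main monocyte chemokine of fibroblasts, fell with siNTRK2 by 0.62 (SE 0.080, adjusted p = 3.6e-06) and with siBDNF by 0.50 (SE 0.080, adjusted p = 6.77e-05), so its response to siBDNF was opposite in sign to that of CXCL8.

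Neighbours of the ELR+ cluster on chromosome 4 were examined as 11 genes, of which 8 were tested. With siNTRK2 none of them fell and 2 rose, where 10% and 11.1% of all genes did. AREG, which encodes the growth factor amphiregulin, rose by 0.32 on the log2 scale (SE 0.081, adjusted p = 0.00509) and ANKRD17 by 0.27 (SE 0.045, adjusted p = 7.46e-05). EREG, which encodes epiregulin, gave -0.14 (SE 0.060, adjusted p = 0.109). Of the 6 ELR+ genes between and beside them, 4 fell. With siBDNF 3 neighbours rose, where 10.3% of all genes did. AREG rose by 0.83 (SE 0.080, adjusted p = 3.97e-08), EREG by 0.77 (SE 0.059, adjusted p = 1.38e-09) and ANKRD17 by 0.31 (SE 0.045, adjusted p = 1.8e-05).

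Chemokine mRNAs are known to be short-lived through AU-rich elements. The letters ATTTATTTA were counted in the 3′ untranslated region of each member's main transcript. They occurred 2 times in CXCL1, 4 times in CXCL2 and once each in CXCL8 and CXCL12, and not in the other members. Of 19403 coding transcripts 7.04% held them. With siNTRK2 the log2 fold changes of the members that held them were -1.23 for CXCL1, -0.92 for CXCL2, -1.52 for CXCL8 and -0.53 for CXCL12. Those of the members that lacked them were -1.27 for CXCL3, -1.48 for CXCL5, -0.65 for CXCL6, -0.89 for CXCL14 and -0.02 for CXCL16. The shorter letters ATTTA occurred in every member, also in those without ATTTATTTA. They were found 6 times in CXCL1, 10 in CXCL2, 7 in CXCL3, 11 in CXCL5 and 6 in CXCL6. CXCL8 held 9, CXCL12 held 5, and CXCL14 and CXCL16 held 1 each. No share over all transcripts was computed for ATTTA. Of 7 genes that bind AU-rich elements or cut these mRNAs, all tested, 1 rose with siNTRK2 and none fell, where 11.1% and 10% of all genes did. The gene that rose was HNRNPD (log2 fold change 0.28, SE 0.044, adjusted p = 6.15e-05). With siBDNF 2 of the 7 rose and 1 fell, where 10.3% and 10.2% of all genes did. With siBDNF ZC3H12A, which encodes the endonuclease regnase-1, rose by 0.72 (SE 0.14, adjusted p = 5.77e-04), ZFP36L1 rose by 0.28 (SE 0.049, adjusted p = 1.51e-04), and ELAVL1 fell by 0.23 (SE 0.047, adjusted p = 7.19e-04).

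Of 7 proteases that shed or trim chemokines, all tested, 3 rose and 2 fell with siNTRK2, where 11.1% and 10% of all genes did. DPP4, which removes the first residues of CXCL12, rose by 0.69 on the log2 scale (SE 0.046, adjusted p = 9.63e-11), and MMP2, a gelatinase that also trims CXCL12, by 0.35 (SE 0.044, adjusted p = 3.38e-06). MMP3, a stromelysin of the SASP, fell by 0.46 (SE 0.060, adjusted p = 3.92e-06) with siNTRK2 and rose by 0.87 (SE 0.058, adjusted p = 1e-10) with siBDNF. MMP1, the interstitial collagenase, fell by 0.22 (SE 0.044, adjusted p = 6.22e-04) and rose by 0.39 (SE 0.044, adjusted p = 4.74e-07) in the same order. With siBDNF 5 of the 7 rose and none fell, where 10.3% and 10.2% of all genes did.

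The tested genes whose pattern over the 12 libraries came nearest to those of CXCL8, CXCL1 and CXCL12 were found by the root mean square (RMS) difference of log2 CPM, each gene centred on its own mean. Nearest to CXCL8 were ENSG00000183531 (0.24), GCH1 (0.28), MIR147B (0.28), PTGS2 (0.28) and TIMP3 (0.30). Nearest to CXCL1 were ST6GALNAC4 (0.20), FAM87A (0.30), KCNK1 (0.32), TMEM30A (0.33) and MT1X (0.33). Nearest to CXCL12 were ENPP1 (0.09), RAB38 (0.10), CA13 (0.13), MAMSTR (0.14) and TGFBR3 (0.14). These distances describe 12 libraries of 4 groups and carry no test.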

How the data were processed

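Libraries had been made by the authors with a stranded mRNA kit. Their reads were trimmed with Cutadapt, aligned to hg19 by STAR 2.4.0j and assigned to Ensembl genes by featureCounts 1.6.4. The deposited values are these counts, without normalization, 1 file per library. Strand and multiple-hit settings of the counting are not given in the sources used here. Of 57773 identifiers, 55538 were paired with a symbol through a table of gene names. The counts were tested with edgeR 4.0.16 under R 4.3.3 (TMM, filterByExpr over 4 groups, quasi-likelihood test, 1 fit of 12 libraries), with Benjamini-Hochberg adjustment over 21518 genes and a call at an adjusted p under 0.05. DESeq2 1.42.0 was an alternative. Each SE was taken from the fold change and its F statistic. Totals were 31567912 to 72328151 counts, and 3 counts per library served as the floor, which covers counting error only. Length scaling used merged exons of GENCODE v44 on hg19. Members, lists and tests were chosen with earlier results of these data known. Every member is named, of a list at most 4 genes with the smallest adjusted p under 0.05 in the comparison described, receptors in any case, and the 5 nearest patterns of CXCL1, CXCL8 and CXCL12, with a prior count of 2. EREG with siNTRK2, IL6 and IL1R1 in senescence, IL6 with siBDNF, CDKN1A, CDKN2A and MKI67 were singled out after values were seen. So were BDNF with siNTRK2 and in senescence, and the comparisons of silenced with proliferating cells. Counts were also simulated with siNTRK2's libraries, with 200 of 21518 genes changed. On these edgeR called 89 of 108 genes at a log2 change of 1 and 92 of 92 at 2, with 12 false calls. The simulated spread was set by a formula and not fitted to these libraries. These rates therefore do not describe members with few counts. Replicate libraries differed by more than counting noise in every pair, with a chi-square of 3.82 to 13.1 a gene. A further leukocyte marker is not reported here.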

Additional observations from a re-analysis of the deposited data

Results flagged for a closer look

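The responses of 5 members to the siRNAs differed, by the direct contrast of siNTRK2 with siBDNF senescent cells (edgeR's quasi-likelihood test). The log2 difference was -1.77 for CXCL8 (adjusted p = 2.9e-15), which came to -1.52 with siNTRK2 and 0.26 with siBDNF against the same siCtrl senescent libraries. It was -1.60 for CXCL1 (adjusted p = 3.22e-07, from -1.23 and 0.37), -1.52 for CXCL3 (adjusted p = 0.00177, from -1.27 and 0.26) and -1.52 for CXCL5 (adjusted p = 4.3e-04, from -1.48 and 0.04). For CXCL12 it was -0.61 (adjusted p = 2.44e-04, from -0.53 and 0.08). Each of these 5 genes was lower in 3 of 3 siNTRK2 libraries than in any siBDNF library, as was CXCL2, which was not flagged. The 5 genes were flagged by this same contrast, so the lack of overlap adds no support. Its share over all tested genes is not given.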

How the results depend on the processing

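Of the fold changes of members, 349 computed under other settings than leaving out a library kept their direction and side of the threshold, 6 passed where the reported value did not, 5 no longer passed and 3 reversed. Requiring an absolute log2 fold change over 1 left 2 of 4 calls in siCtrl senescent against proliferating cells and 0 of 1 with siBDNF. Leaving out 1 library gave 3 to 5 members called in senescence, 4 to 5 with siNTRK2, 0 to 2 with siBDNF and 5 to 6 between the siRNAs. The replicate numbers are shared labels only (mean correlation of same-numbered libraries 0.0018 against -0.00094 for others). With the replicate block, 4, 5, 1 and 5 members were called in the same order, and summed CXCL1, CXCL2 and CXCL3 with siBDNF gave 0.37 (adjusted p = 0.0517). Against proliferating cells the block also ended the call of CXCL6 with siNTRK2 (-1.03, adjusted p = 0.0526) and added one of CXCL16 with siBDNF (-0.48, adjusted p = 0.0416). Without 1 library that sum gave 0.32 to 0.47. Without length scaling the CXCL8 share differed by 29.9 points in senescence, -12.88 with siNTRK2 and -15.18 between the siRNAs. The CXCL12 share then differed by -23.03, 7.588 and 8.641 points in the same order.

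The reversals were all of values that had not passed. CXCL16 with siNTRK2 gave 0.0010 with library totals and -0.15 to 0.16 without 1 library. CXCL8 in siNTRK2 senescent against proliferating cells gave 0.031 with library totals, 0.012 with at least 10 counts in every library, and -0.082 to 0.048 without 1 library. Without 1 library, CXCL5, CXCL6 and CXCL12 with siBDNF gave -0.15 to 0.20, -0.078 to 0.21 and -0.023 to 0.19. CXCL14 between the siRNAs gave -0.32 to 0.15, and CXCL2 in siNTRK2 against proliferating cells -0.18 to 0.95. The causes were not tested.

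Library totals in place of TMM moved the share of calls that were higher from 50.5% to 69.3% with siBDNF and from 52.9% to 37.7% between the siRNAs, and the median of all genes in siBDNF against proliferating cells to 0.11. With at least 10 counts in every library CXCL2 and CXCL14 were not tested. DESeq2 gave no adjusted p for CXCL2, CXCL6 and CXCL14 with siBDNF. CXCL2 had at most 38 and CXCL6 at most 37 counts in any library, which limits their precision.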
